A study of Mus musculus with 130 samples.

Results

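The 40 embryos described here are the 20 SR1848-treated mouse embryos with the highest and the 20 with the lowest share of reads on B2, a short interspersed element of rodent genomes. They were chosen by a measured value, their B2 reads, from 80 SR1848 embryos among 130 embryos in all. The choice read a single value per embryo, the estimated count of the B2 entry as CPM, counts scaled to a common column total, so high B2 and low B2 are ends of a measured range and not treatments. Each embryo was a B6129F1 2-cell embryo sequenced alone by Smart-seq2 with oligo-dT priming, a full-length cDNA method for polyadenylated RNA. All 80 were cultured from 6 hours after fertilization in 10 µM SR1848, a small molecule used against the orphan nuclear receptor Nr5a2, and the 50 DMSO embryos, used only for comparison, were kept in 0.1% DMSO. Nothing in the labels ties embryos to mothers, culture dishes or plates, so p-values describe the variation among single embryos and can include technical variation.

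B2 elements are copied into DNA from RNA that RNA polymerase III makes from a promoter inside the element. Copies lie in the introns and untranslated regions of many genes, so B2 sequence also enters messages made by RNA polymerase II, and full-length B2 RNA ends in an A-rich tail. In mouse cells the abundance of free B2 RNA is known to change with stress and with early development, and the repeat is among those that early embryos transcribe. In single-embryo libraries, reads from free B2 RNA, from B2 inside messages and from unspliced introns fall on 1 entry and cannot be told apart, and neither can a change of B2 RNA and a change of all other RNA.

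The B2 entry stood at 260.2 to 870.2 CPM in the high-B2 embryos (median 345.2) and at 10.7 to 96.3 CPM in the low-B2 embryos (median 70.7). The choice makes these groups separate, and nothing is tested on them. At the upper limit the embryo ranked 20 had 260.2 CPM and the one ranked 21 had 252.1 CPM, and at the lower limit rank 60 had 98.0 CPM and rank 61 had 96.3 CPM, so there was no gap at either limit. The 40 SR1848 embryos between the ends ran from 98.0 to 252.1 CPM (median 169.5), and the 50 DMSO embryos from 11.8 to 278.5 CPM (median 56.9). The low-B2 end therefore covered part of the DMSO range, and 17 of the 80 SR1848 embryos lay above every DMSO embryo.

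**Figure D1:**
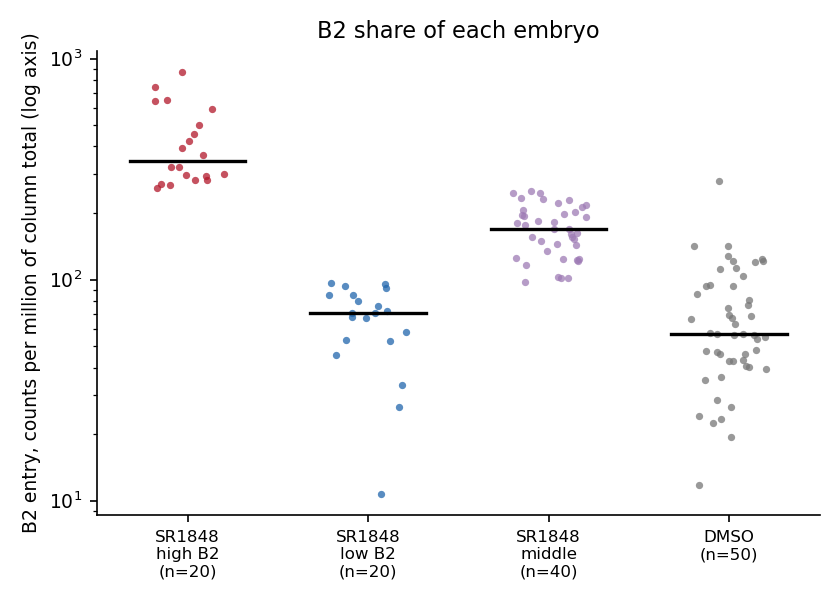
B2 entry in CPM of the column total (log axis), with a point per embryo and a bar at the median. The high-B2 and low-B2 embryos are ends of a continuous range of SR1848 embryos, with medians of 345.2 and 70.7 CPM, and the DMSO median is 56.9 CPM.

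The ends also differed in measures of the whole library, and these values stand beside every gene result that follows. Total counts averaged 4271200 ± 964319 in high-B2 embryos and 5480540 ± 1222330 in low-B2 embryos (SD, n = 20 each), a difference that the choice itself involves, since the total is its denominator. Mitochondrially encoded genes took 6.58 ± 2.82% of counts in high-B2 and 3.44 ± 2.25% in low-B2 embryos (adjusted p = 0.000665, permutation test, two-sided). The 100 most abundant genes took 36.3 ± 3.77% and 32.2 ± 4.62% (adjusted p = 0.00492). After thinning to 3273730 counts, 15531 ± 861 genes were detected in 17 high-B2 embryos and 14768 ± 580 in 19 low-B2 embryos (adjusted p = 0.00375). Without thinning the numbers were 15693 ± 932 and 15307 ± 531, and the difference did not pass (p = 0.118). The high-B2 end had 10 embryos numbered 1 to 40 and 10 numbered 41 to 80, and the low-B2 end 9 and 11. Within 41 to 80 the ends were not evenly spread. The high-B2 embryos there were numbers 41, 42, 43, 47, 48, 50, 52, 53, 64 and 74. The low-B2 embryos there were numbers 55, 57, 65 to 69, 71, 72, 75 and 76. Any part of this finer order in the results was not tested.

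Of 11806 genes tested with edgeR's quasi-likelihood test, 1464 were higher and 1693 lower in high-B2 embryos at an adjusted p under 0.05, which is 26.7% of the genes (12.4% higher, 14.3% lower). With upper-quartile factors the split turned to 1669 higher and 1314 lower, and with total-count scaling to 1470 and 1326. The rises were the larger changes, with 263 genes at least 4-fold higher and 26 at least 4-fold lower. Over all genes the log2 fold change had a median of -0.10. In 26 genes (0.220%) every high-B2 embryo lay above every low-B2 embryo, and in no gene did every high-B2 embryo lie below. With the total count as a covariate 1879 of 14617 genes were called (12.9%), 999 higher and 880 lower. A covariate for the share of mitochondrially encoded counts, added after seeing the data, gave 900 of 15541 genes (5.79%), 606 higher and 294 lower. The filter on low counts was rerun with each covariate and kept more genes than the 11806, so some lists below had more tested members. Counts of a list under a covariate stand beside the all-gene counts under that covariate, not beside 12.4% and 14.3%. Depth and mitochondrial share thus moved with the ends, and their part in the result cannot be told apart from that of B2 in these 40 embryos.

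The largest rises shared short stretches of sequence. Transcripts were searched for words of 20 bases that occur in the transcripts of at least 25 genes on each strand, a mark of dispersed repeats, and 3808 such words were found. The lead transcript of a gene, the one with the highest mean count in the 40 embryos, held such a repeated word in 225 of 261 genes (86.2%) that were at least 4-fold higher, and in 777 of 1455 genes (53.4%) that were higher at all. Among lower genes this was 122 of 1688 (7.23%), and among all genes tested 2076 of 11761 (17.7%). The lead was chosen in the same 40 embryos, so a transcript raised in the high-B2 end can become the lead through that end. The word most shared by the lead transcripts of the at least 4-fold rises was picked from those rises. Its share among them is therefore a description and not a test. As background, the word lies in the body of B2 elements. It was searched on both strands and was present in 147 of those 261 lead transcripts (56.3%), 78 on the sense and 71 on the antisense strand with some holding both, against 4 of 1688 among lower genes (0.237%) and 479 of 11761 among all (4.07%). The windows below show it in lead transcripts of genes that the results turn on, 5′ to 3′ along the transcript, with the word in capitals and 5 bases on each side. Churc1, Rep15 and Nlrc3 carry it in 3′ untranslated regions, Cct6a and Gtpbp4 in transcripts annotated as retained introns, and Nanog and Snrnp70 carry the reverse complement.
Rep15 (chr6:147034119-147034148, mm10, + strand): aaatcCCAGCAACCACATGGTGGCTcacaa
Nlrc3 (chr16:3945694-3945723, mm10, - strand): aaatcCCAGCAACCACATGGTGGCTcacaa
Churc1 (chr12:76783024-76783053, mm10, + strand): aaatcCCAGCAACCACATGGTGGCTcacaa
Cct6a (chr5:129790924-129790953, mm10, + strand): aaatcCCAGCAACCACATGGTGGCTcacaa
Gtpbp4 (chr13:8984847-8984876, mm10, - strand): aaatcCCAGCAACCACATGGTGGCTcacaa
Mtg2 (chr2:180080291-180080320, mm10, + strand): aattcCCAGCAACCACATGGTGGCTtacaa
Olfr889 (chr9:38117690-38117719, mm10, + strand): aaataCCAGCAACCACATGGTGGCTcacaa
Nanog (chr6:122713720-122713749, mm10, + strand): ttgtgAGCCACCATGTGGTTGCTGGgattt
Snrnp70 (chr7:45391411-45391440, mm10, - strand): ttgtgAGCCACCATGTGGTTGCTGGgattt

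A read that falls inside such a word cannot be placed on 1 gene by its sequence, and kallisto divides it among the transcripts that hold it. The level of a gene whose lead transcript holds a repeated word is therefore uncertain, and it may include B2 reads from elsewhere. The sequence behind the deposited B2 entry was not analysed here, so it was not compared with these windows.

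Rep15, which encodes a Rab15 effector, showed the pattern with little spread. It ran from 349 to 1468 CPM in high-B2 embryos (median 747) and from 44.9 to 237 CPM in low-B2 embryos (median 112), with every high-B2 embryo above every low-B2 embryo (log2 fold change 2.76, SE 0.22, edgeR adjusted p = 3.26e-12). Its mean in DMSO embryos was 68.4 ± 38 CPM (n = 50). Nlrc3, a member of the NLR family that restrains innate immune signalling, had 166 to 2289 CPM (median 441) in high-B2 and 21.5 to 116 CPM (median 70.5) in low-B2 embryos, again without overlap (log2 2.94, SE 0.26, adjusted p = 1.52e-11). Sgpl1, sphingosine-1-phosphate lyase, and Wdr66, a WD-repeat protein of cilia, were also free of overlap, with log2 fold changes of 2.90 and 2.77. The low-B2 mean was 116 CPM for Rep15 and 71.8 CPM for Nlrc3, where the DMSO means were 68.4 and 106 CPM.

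The other largest rises had the same direction with more spread. Kcnk4, a mechanosensitive potassium channel, had a median of 99.0 CPM in high-B2 and 11.8 CPM in low-B2 embryos, and 19 of 20 high-B2 embryos lay above every low-B2 embryo (log2 2.81). Mtg2, a GTPase of the mitochondrial ribosome, rose by a log2 of 2.91, Tmem69 by 2.80, Pbld1 by 2.77 and Pbdc1 by 2.73. The olfactory receptor genes Olfr889, Olfr373 and Olfr63 rose by 3.03, 3.22 and 2.72. Olfr889 ran from 35.8 to 507 CPM in high-B2 and from 6.42 to 32.1 CPM in low-B2 embryos, with no overlap, while Olfr373 and Olfr63 overlapped, with 12 and 9 of 20 high-B2 embryos above every low-B2 embryo. The lead transcript of each of these 12 genes held a repeated word, which for the 3 olfactory receptors lay in the 3′ untranslated region.

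Genes whose levels followed B2 most closely over the 80 SR1848 embryos were chosen for that and are given as a description. Cct6a, a subunit of the cytosolic chaperonin, had Spearman's rho 0.92 with B2 CPM, Tango2, a protein of uncertain role in lipid handling, 0.91, Cox14, an assembly factor of cytochrome c oxidase, 0.91, Snf8, an ESCRT-II subunit, 0.90, and Churc1, a zinc-binding transcription factor, 0.89. Cct6a ran from 822 to 3531 CPM (median 1653) in high-B2, from 124 to 625 CPM (median 397) in low-B2 and from 163 to 783 CPM (median 360) in DMSO embryos. Its lead transcript is a retained intron of which 33.3% lies in repeated words. In DMSO embryos, which the choice did not use, the levels of all 5 rose with B2 (edgeR adjusted p between 2.19e-09 and 0.00432). Slopes per doubling of B2 were 0.36 for Cct6a, 0.24 for Tango2, 0.62 for Cox14, 0.62 for Snf8 and 0.52 for Churc1. Cct6a, Churc1 and Snf8 hold the B2 word in their lead transcripts. The lead transcript of Cox14, with 97.6% of its counts, has no sequence in the reference. These slopes are on the same B2 entry, so shared reads can enter them in any embryos, and their part was not tested. At the other end, Arf1, a GTPase of Golgi traffic, had rho -0.67, Cnot2, a scaffold of the deadenylase CCR4-NOT, -0.66, Ide, the insulin-degrading enzyme, -0.66, Vps4a, the ESCRT-III ATPase, -0.66, and Dcaf7, a WD40 adaptor, -0.65.

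**Figure D2:**
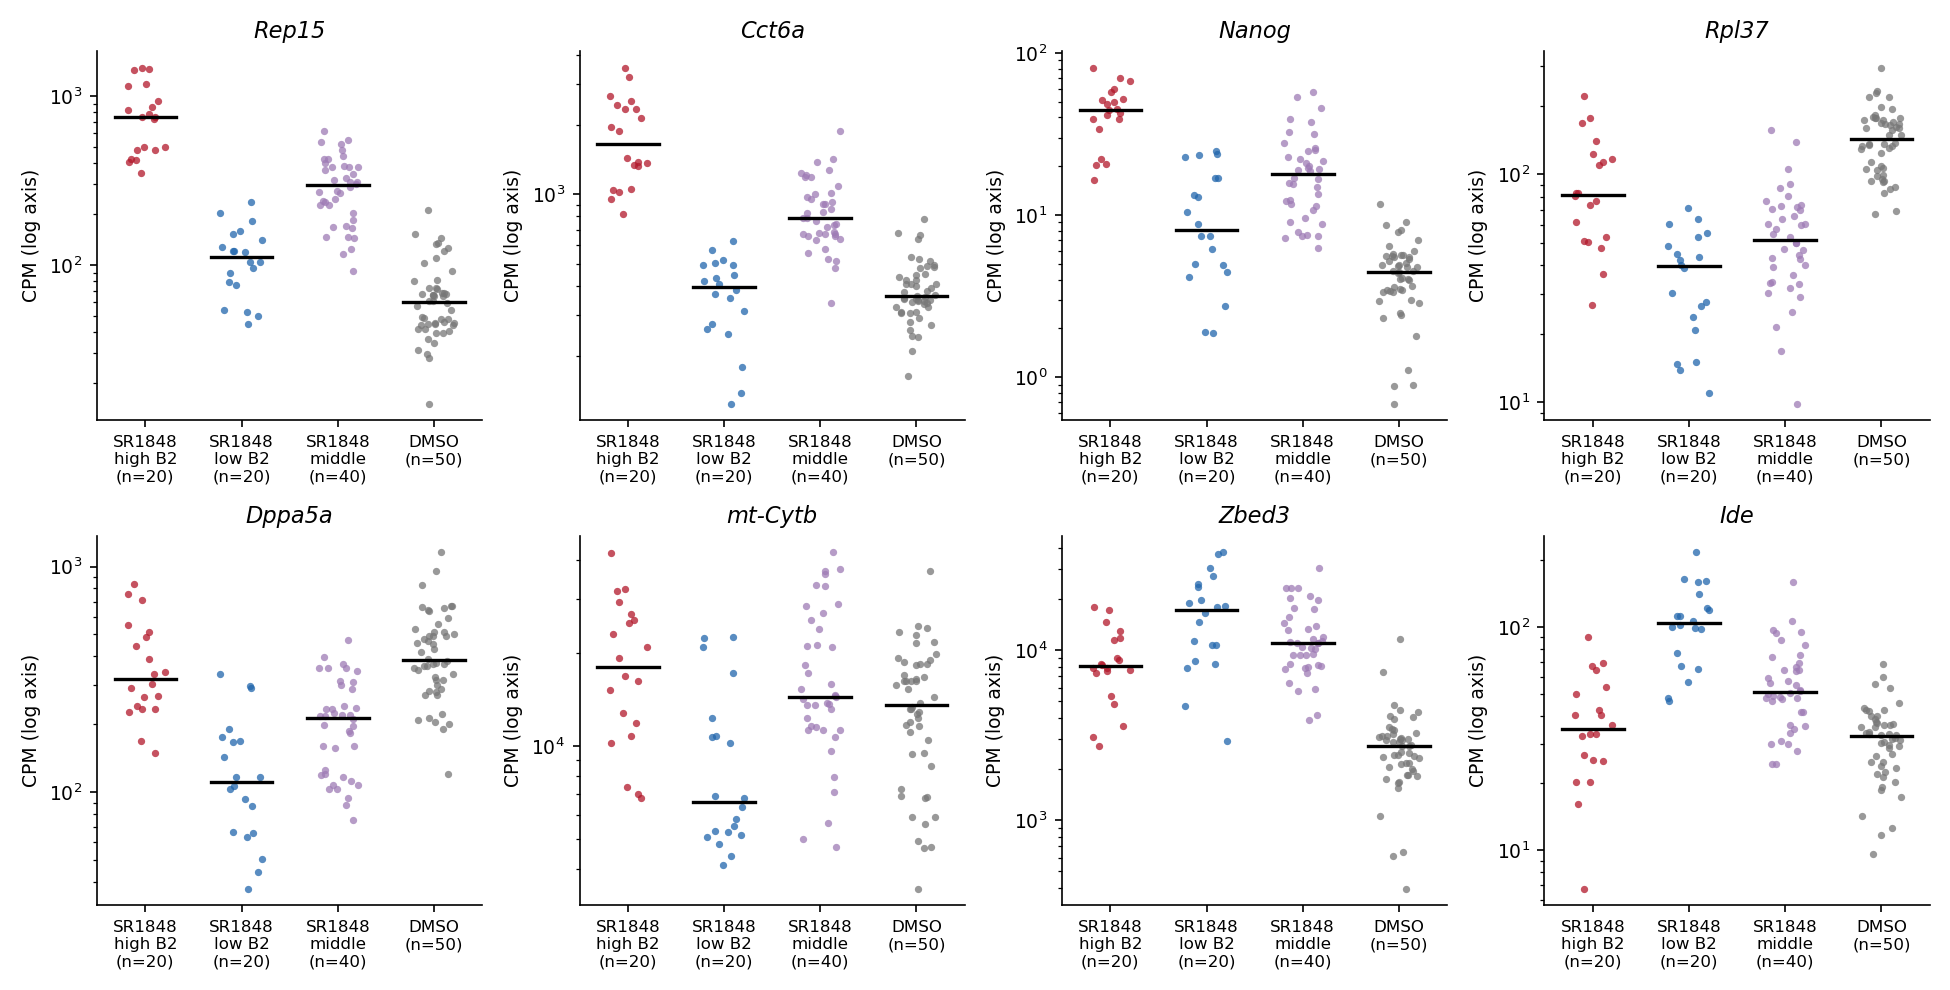
CPM (TMM-scaled, log axis) of 8 genes with a point per embryo and a bar at the median. Rep15 and Cct6a, with repeated words, separate the ends without overlap, Nanog nearly does, Rpl37, Dppa5a and mt-Cytb are higher in the high-B2 embryos with overlap, and Zbed3 and Ide are lower with overlap.

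Counts on transcripts holding a repeated word made up 26.9 ± 3.90% of gene counts in high-B2 embryos and 18.02 ± 4.43% in low-B2 embryos, with 17.4 ± 1.63% in DMSO embryos (high against low adjusted p = 4.67e-05, permutation test, the smallest the resamples can give here). Counts on transcripts annotated as retained introns were 6.78 ± 1.24% in high-B2 and 3.51 ± 0.592% in low-B2 embryos, and 19 of 20 high-B2 embryos lay above every low-B2 embryo (adjusted p = 4.67e-05). The difference sat on the transcripts with repeated words. Retained-intron transcripts without a repeated word took 1.93 ± 0.231% in high-B2 and 1.93 ± 0.330% in low-B2 embryos (adjusted p = 0.993), and 2.58 ± 0.179% in DMSO embryos. Protein-coding transcripts without a repeated word took 61.1 ± 3.80% in high-B2 and 71.02 ± 4.77% in low-B2 embryos (adjusted p = 4.67e-05). All 4 measures were added after seeing the data, and they are shares of the same gene total, so they are not separate tests. The embryos were chosen by B2 reads, and kallisto can divide such reads among transcripts that hold repeated words. The choice itself may therefore raise the repeated-word and retained-intron shares and lower the coding share, and its part was not tested.

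**Figure D3:**
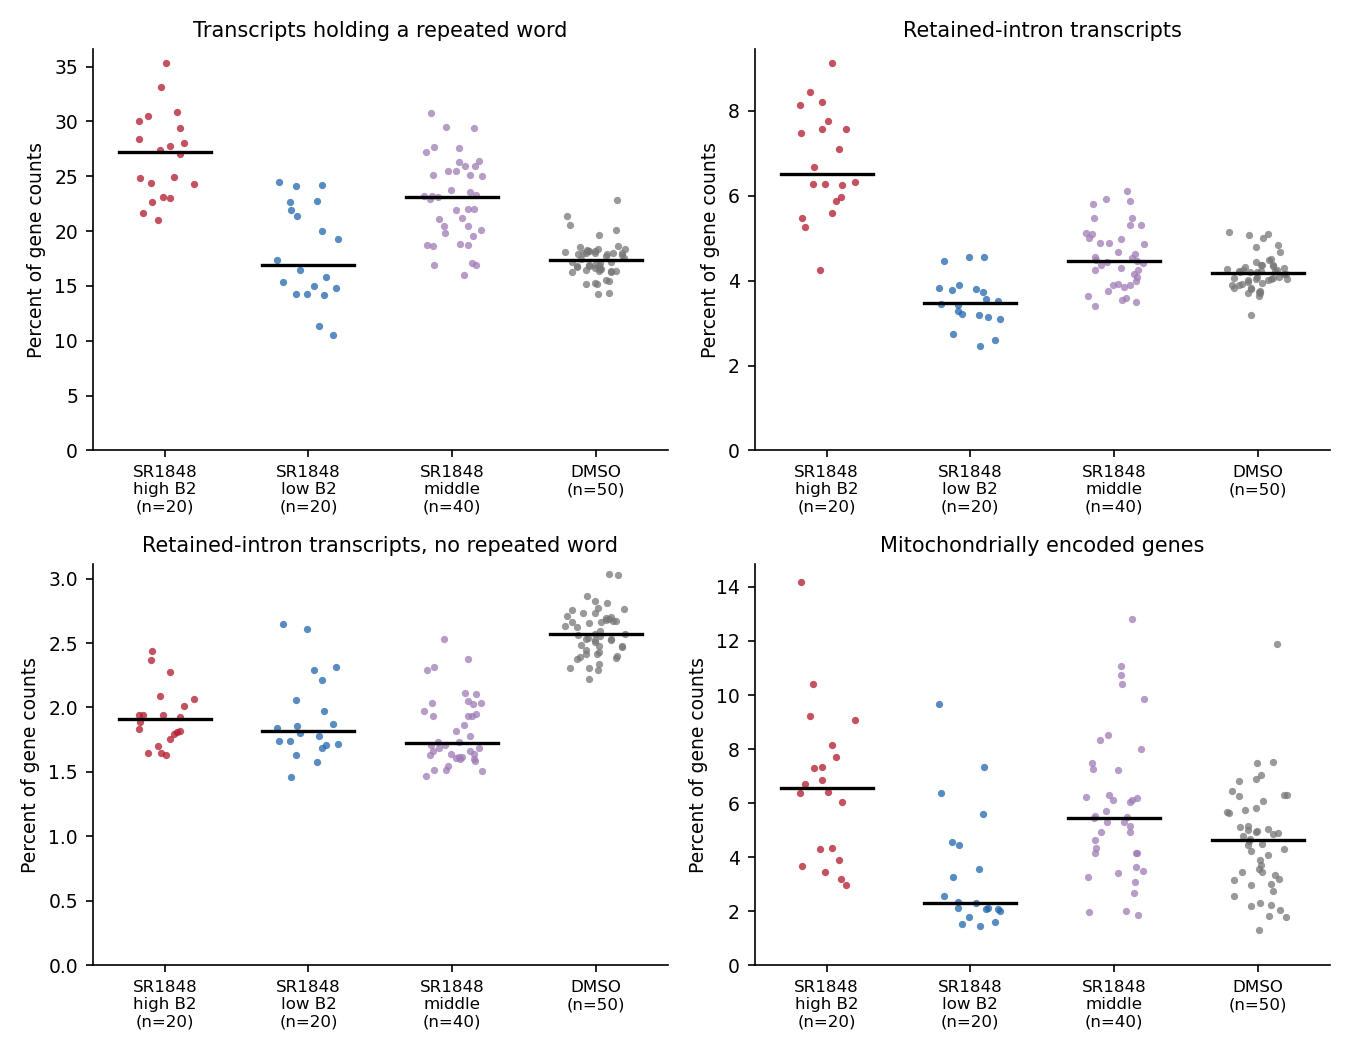
Percent of gene counts per embryo on transcripts that hold a repeated word, on retained-intron transcripts, on retained-intron transcripts without a repeated word and on mitochondrially encoded genes, with bars at the median. Repeated-word, retained-intron and mitochondrial shares are higher in high-B2 than in low-B2 embryos, while retained-intron transcripts without a repeated word average 1.93% in both.

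The other repeat entry of the table followed B2. B1, a short interspersed element derived from the 7SL RNA of the signal recognition particle, had 69.3 to 241 CPM (median 154) in high-B2 embryos and 19.3 to 91.9 CPM (median 46) in low-B2 embryos, and 17 of 20 high-B2 embryos lay above every low-B2 embryo (log2 1.54, SE 0.18, edgeR adjusted p = 1.15e-08). DMSO embryos had 40.7 ± 14.8 CPM. Its slope on B2 did not pass in the 40 middle embryos (0.41, adjusted p = 0.414) or in the DMSO embryos (0.24, adjusted p = 0.0825). An entry under the Nr5a2 gene identifier, whose sequence was not analysed here, had a median of 86.4 CPM in high-B2 and 24.6 CPM in low-B2 embryos (log2 1.61, SE 0.18, adjusted p = 4.25e-09). The transcripts of Nr5a2 itself, the receptor SR1848 is used against, averaged 11.2 ± 9.43 CPM in high-B2 and 11.7 ± 7.95 CPM in low-B2 embryos (log2 -0.05, SE 0.41, adjusted p = 0.946), and 99.0 ± 27.6 CPM in DMSO embryos.

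Genes with no repeated word in any transcript are less exposed to shared reads, and they changed too. Of 7137 such genes tested, 525 were higher (7.36%) and 1058 lower (14.8%) in high-B2 embryos, together 22.2%, with a median log2 fold change of -0.18. Of the 4532 genes with a repeated word in some transcript, 927 were higher (20.5%) and 606 lower (13.4%), with a median of 0.06. A further 137 genes had a transcript whose sequence was not in the reference.

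The largest rises among genes with no repeated word, a choice added after seeing the data, were of several kinds. Tmsb4x, thymosin beta 4, which binds actin monomers, ran from 50.4 to 542 CPM (median 152) in high-B2 embryos and from 0 to 147 CPM (median 40.4) in low-B2 embryos, with 11 of 20 high-B2 embryos above every low-B2 embryo (log2 2.02, SE 0.37, edgeR adjusted p = 5.62e-05). Ddt, D-dopachrome tautomerase, had medians of 54.6 and 15.2 CPM (log2 1.90), and Prr18 had 33.7 and 4.47 CPM (log2 2.45). Hsd17b10, a mitochondrial dehydrogenase, rose by a log2 of 2.41, Gabra2, a subunit of the GABA receptor, by 2.28, and Fthl17c, a ferritin-like X-linked gene, by 2.32 with an SE of 0.87. In each of these genes the ends overlapped.

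The 2-cell-stage genes, which are switched on with the embryo's own genome, were higher in high-B2 embryos in 12 of 26 tested members and lower in none, beside 12.4% of all genes higher. Their median log2 fold change was 0.77, against -0.10 over all genes. The 12 included all 6 Zscan4 genes of the list, which encode zinc-finger proteins of a near-identical family, so reads may be shared among them. Zscan4f ran from 195 to 1890 CPM (median 374) in high-B2 and from 13.3 to 649 CPM (median 186) in low-B2 embryos (log2 1.18, SE 0.31, adjusted p = 0.00379), and Zscan4c had medians of 97.9 and 23.2 CPM (log2 1.78). The ends overlapped in both. Zscan4-ps1 (log2 2.20) was among the largest rises without a repeated word, and Tdpoz3 (1.6), Eif1ad7 (1.23), Eif1ad2 (1.11), Tcstv3 (0.91) and Arg2 (0.83) passed as well. Usp17lb did not pass, at 498 ± 238 CPM in high-B2 and 403 ± 304 CPM in low-B2 embryos. Summed over the list, the medians were 3791 CPM in high-B2, 2239 CPM in low-B2 and 1445 CPM in DMSO embryos. The low-B2 end was thus the nearer to DMSO. Of the 23 tested members without a repeated word, 11 were higher. With the total count as a covariate 4 of 26 were higher, beside 999 of all 14617 genes. With the mitochondrial share 1 was higher, beside 606 of 15541. In DMSO embryos 1 of 24 rose with B2, beside 3.84% of all genes. In the 40 middle SR1848 embryos none of 26 passed, beside 0.453% of all genes. The median slope of the 26 there was 0.31 per doubling of B2, against 0.01 over all genes.

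Ribosomal protein genes were higher in 37 of 82 and lower in none, beside 12.4% and 14.3% over all genes. Their median log2 was 0.60. Of the 56 with no repeated word, 24 were higher. Rpl37 had 26.7 to 221 CPM (median 81.4) in high-B2 and 11 to 70.9 CPM (median 39.5) in low-B2 embryos (log2 1.34, SE 0.25, adjusted p = 5.63e-05), and 13 of 20 high-B2 embryos lay above every low-B2 embryo. Rps25 (log2 1.47) and Rpl36a (1.94) rose as well, while Rplp0, the most abundant member, stood at 1881 ± 685 CPM in high-B2 and 1670 ± 614 CPM in low-B2 embryos and did not pass. In DMSO embryos 23 ribosomal protein genes rose with B2 and 1 fell, beside 3.84% and 5.45% of all genes. In the 40 middle SR1848 embryos none of 82 passed, beside 0.453% of all genes. The median slope of the 82 there was 0.42 per doubling of B2, against 0.01 over all genes. With the total count as a covariate 17 were higher between the ends, beside 999 of all 14617 genes. With the mitochondrial share 1 was higher, beside 606 of 15541. Ribosome biogenesis genes were higher in 13 of 56 and lower in 1, beside the same shares over all genes. The rises were led by Gtpbp4, a GTPase of the large subunit (median 3383 CPM in high-B2 and 825 CPM in low-B2 embryos), Wdr12 (log2 2.04) and Taf1d (1.11). With the total count as a covariate 9 of 57 were higher, beside 999 of 14617, and with the mitochondrial share 2 of 57, beside 606 of 15541. Gtpbp4 and Wdr12 hold the B2 word in their lead transcripts, and 4 of the 30 biogenesis genes with no repeated word were higher.

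Of the 13 mitochondrially encoded messages, which specify subunits of the respiratory chain and its ATP synthase, 11 were higher and none lower. Over all genes 12.4% were higher. The median log2 of the 13 was 0.97. mt-Cytb ran from 6808 to 42232 CPM (median 18071) in high-B2 embryos and from 4125 to 22523 CPM (median 6591) in low-B2 embryos (log2 1.01, SE 0.25, adjusted p = 0.00213). mt-Atp8 (1.18), mt-Nd2 (1.09) and mt-Co2 (0.99) moved alike. The DMSO mean of mt-Cytb was 14143 CPM, and the ends overlapped. With the total count as a covariate 4 of the 13 were higher, beside 999 of all 14617 genes. With the mitochondrial share, which these genes make up, none was higher. In DMSO embryos 1 of them rose with B2. In the 40 middle SR1848 embryos none passed, beside 0.453% of all genes, and the median slope was 0.14, against 0.01 over all genes. Nuclear genes of oxidative phosphorylation were mixed, with 19 of 68 higher and 6 lower, beside 12.4% and 14.3% over all genes. Between the ends 11 of 76 were higher and 1 lower with the total count as a covariate, beside 999 and 880 of 14617. With the mitochondrial share 3 of 76 were higher and none lower, beside 606 and 294 of 15541. Of the 19, 12 have no repeated word in any transcript, among them Ndufa2 of complex I (log2 1.03) and Uqcr10 of complex III (0.85). Ndufs1, also of complex I (log2 1.49), and Atp5l of the ATP synthase (1.82) rose on retained-intron lead transcripts that hold repeated words, while Atp5b, the catalytic beta subunit, fell by 0.49 on the log2 scale (adjusted p = 0.0435).

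**Figure D4:**
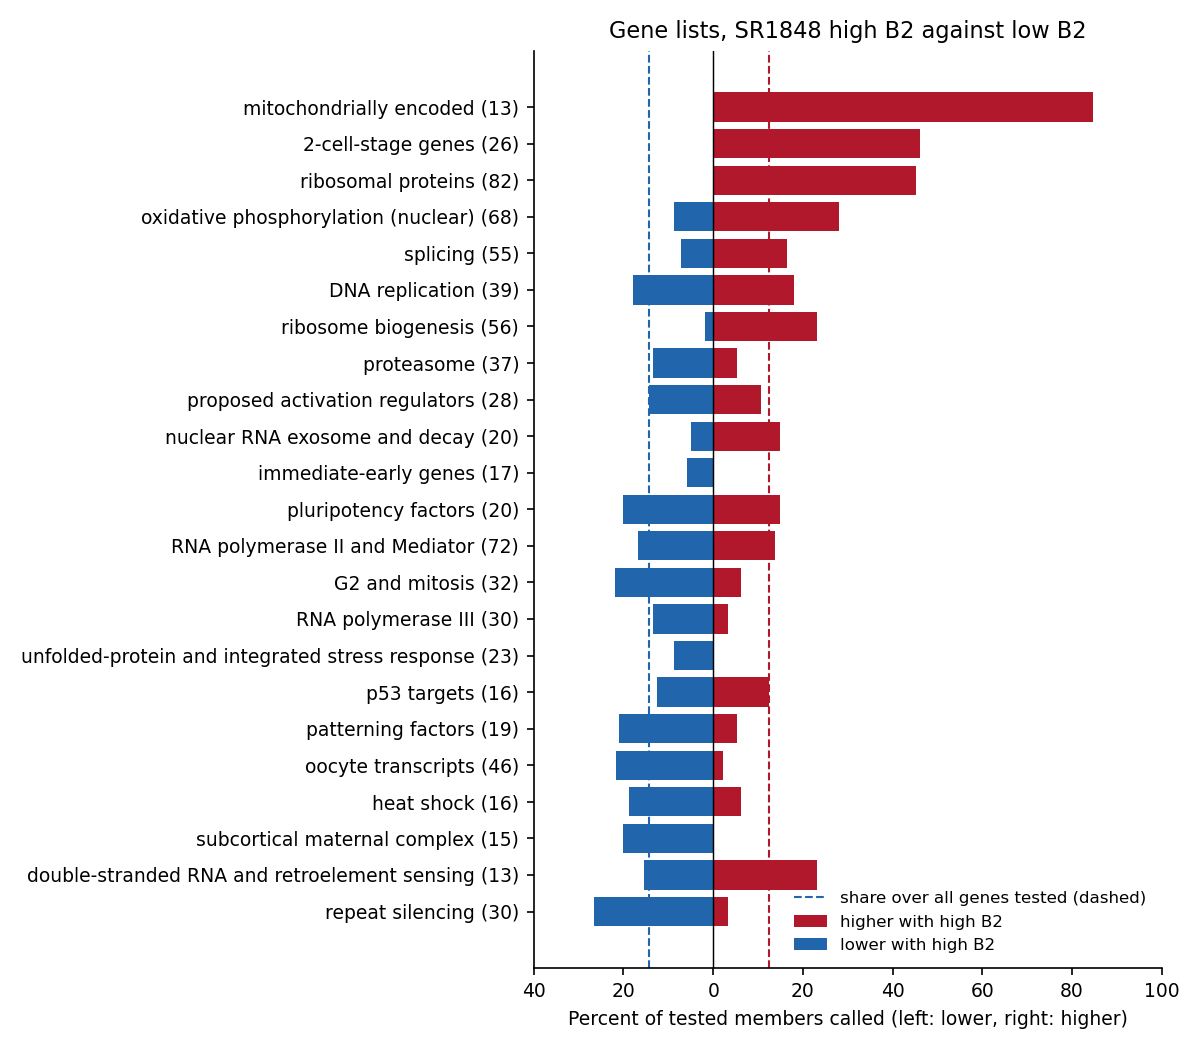
Percent of the tested members of 23 gene lists (number in brackets) that were higher (red, right) or lower (blue, left) in high-B2 embryos at an adjusted p under 0.05, with dashed lines at the shares over all genes tested, 12.4% and 14.3%. Of these lists, all with 13 or more tested members, mitochondrially encoded, 2-cell-stage and ribosomal protein genes extend furthest to the right, and repeat silencing genes furthest to the left.

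The lead transcripts of the largest falls hold no repeated word. Anp32b, an acidic nuclear histone chaperone, had 35 to 339 CPM (median 116) in high-B2 embryos and 36.1 to 1602 CPM (median 514) in low-B2 embryos (log2 -2.10, SE 0.32, edgeR adjusted p = 2.60e-06). Tram1, which helps proteins into the endoplasmic reticulum, had medians of 160 and 582 CPM (log2 -2.23), and Kctd13, an adaptor of a cullin ligase, 124 and 425 CPM (log2 -2.23). The ends overlapped in all 3. Lgalsl (log2 -2.32), Rfx5 (-2.19), Gpsm2 (-2.10), Tbc1d10a (-2.09), Rufy1 (-2.06), Panx1 (-2.04), Cnot11 (-2.04) and the pseudogene Ptges3-ps (-2.30) fell as well. Ide separated the ends better, with 6.75 to 90.2 CPM (median 34.8) in high-B2 and 46.4 to 216 CPM (median 104) in low-B2 embryos, and 14 of 20 high-B2 embryos below every low-B2 embryo (log2 -1.47). Cnot2 (-0.93) had 13 such embryos, and Arf1 (-1.16) and Dcaf7 (-1.02) had 12 each.

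Stored oocyte messages were lower more often than higher, with 10 of 46 lower and 1 higher and a median log2 of -0.21, beside 14.3% of all genes lower. Cpeb1, which controls polyadenylation of stored messages, had 58 to 265 CPM (median 193) in high-B2 and 165 to 833 CPM (median 355) in low-B2 embryos (log2 -1.32, SE 0.20, adjusted p = 3.01e-06), and 9 of 20 high-B2 embryos lay below every low-B2 embryo. Pabpc1l (-1.21), the embryonic poly(A)-binding protein, Bmp15 (-0.91), an oocyte growth factor, Btg4 (-0.86), an adaptor of message decay, and Cnot7 (-0.61), a deadenylase, fell too. Zp3 of the zona pellucida was the member that rose, with 98.2 ± 27.1 CPM in high-B2 and 58.8 ± 23.3 CPM in low-B2 embryos (log2 0.73). Spin1, the most abundant, did not pass (9027 ± 5167 and 11799 ± 6949 CPM). In the subcortical maternal complex, a protein assembly stored in the egg, 3 of 15 were lower and none higher. These were Zbed3, at 8907 ± 4316 CPM in high-B2, 17565 ± 10006 CPM in low-B2 and 2880 ± 1718 CPM in DMSO embryos (log2 -1), Khdc3 (-1.09) and Nlrp9a (-0.99). With the mitochondrial share as a covariate 1 of 47 oocyte messages was lower, and none of the 15 genes of this complex. Over all genes 294 of 15541 were lower. With the total count 3 of 47 oocyte messages were lower and 1 higher, beside 880 and 999 of 14617. In the middle SR1848 embryos 1 of 46 fell with B2 and none rose (median slope -0.36), and in DMSO embryos 5 fell and 1 rose. Summed over the oocyte list, medians were 22505 CPM in high-B2, 29146 CPM in low-B2, 32796 CPM in middle and 15704 CPM in DMSO embryos.

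Genes that silence repeats were lower in 8 of 30 and higher in 1, with a median log2 of -0.36, beside 14.3% lower and 12.4% higher over all genes. Suv39h2, a methyltransferase of histone H3 lysine 9, had 21.4 to 186 CPM (median 44.4) in high-B2 and 23.4 to 430 CPM (median 147) in low-B2 embryos (log2 -1.49, SE 0.32, adjusted p = 0.000431). Chaf1a, a subunit of the chromatin assembly factor, averaged 97.5 ± 51.4 CPM in high-B2 and 202 ± 120 CPM in low-B2 embryos (log2 -1.07). Suv39h1 (-0.74), Cbx5 (-1.09), Dnmt3b (-0.87), Uhrf1 (-0.56) and Pphln1 (-0.48) also fell, and Cbx3 (0.86), a paralog of Cbx5, was the rise. With the mitochondrial share as a covariate 4 of 31 were lower, beside 294 of all 15541 genes. With the total count 5 of 31 were lower, beside 880 of 14617. In DMSO embryos 2 of the 30 fell and 1 rose with B2. In the 40 middle SR1848 embryos none passed, beside 0.453% of all genes, and the median slope was -0.05, against 0.01 over all genes. The ends overlapped for Suv39h2 and Chaf1a. For both the high-B2 mean lay closer to the DMSO mean (29.1 and 81.9 CPM) than the low-B2 mean did. Summed over the list this was not so, with medians of 2746 CPM in high-B2, 3839 CPM in low-B2 and 3547 CPM in DMSO embryos.

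RNA polymerase III is the enzyme that makes free B2 RNA. Of its 30 subunit and factor genes 1 was higher and 4 were lower, with a median log2 of -0.14, and shares of called genes below those over all genes. Polr3k, a subunit, was the rise, at 65.4 ± 39 CPM in high-B2 and 34.4 ± 15.9 CPM in low-B2 embryos (log2 0.93), and its lead transcript holds a repeated word. Gtf3a, the factor of the 5S genes, was lower, at 108 ± 54.3 CPM in high-B2 and 173 ± 69 CPM in low-B2 embryos (log2 -0.70). With the mitochondrial share as a covariate none of the 30 passed, beside 5.79% of all genes.

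Genes that sense or bind structured RNA were higher in 3 of 13 and lower in 2, beside 12.4% and 14.3% over all genes. Dhx9, a helicase that unwinds paired repeats in RNA, had 16.6 to 79.3 CPM (median 38.8) in high-B2 and 1.03 to 35.2 CPM (median 11.7) in low-B2 embryos (log2 1.49, SE 0.30, adjusted p = 0.000239). Samhd1, a dNTP hydrolase, rose by a log2 of 1 and Ilf2, a partner of double-stranded RNA-binding proteins, by 0.89, while Zc3h14 (-0.73) and Adarb1 (-1.42), an adenosine deaminase of double-stranded RNA, fell. All 3 that rose have a transcript with a repeated word. In the nuclear exosome, which degrades RNA, Exosc2 (1.70), Exosc9 (2.35) and Exosc5 (1.86) rose and Rbm7 (-1), of the targeting complex, fell, out of 20. The 3 that rose do so on lead transcripts with repeated words, and of the 9 members without one none passed.

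Among stress lists, heat-shock genes were higher in 1 of 16 and lower in 3, beside 12.4% of all genes higher and 14.3% lower. Hsf1, their transcription factor, had 231 ± 62 CPM in high-B2 and 327 ± 133 CPM in low-B2 embryos (log2 -0.52), Hspa4l fell by 0.96 on the log2 scale and Hsp90aa1 rose by 0.60. Of 23 genes of the unfolded-protein and integrated stress response 2 were lower, of 16 p53 targets 2 were higher and 2 lower, and of 17 immediate-early genes 1, Egr1, was lower (46.5 ± 22.6 and 110 ± 65.4 CPM).

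Among RNA polymerase II and Mediator genes 10 of 72 were higher and 12 lower, shares near the 12.4% and 14.3% over all genes. A covariate for the total count gave 6 higher and 8 lower, beside 999 and 880 of all 14617 genes. One for the mitochondrial share gave 3 and none, beside 606 and 294 of 15541. Polr2l (log2 1.69) and Ccnt1 (1.66), the cyclin of the elongation factor P-TEFb, rose on lead transcripts with repeated words, Polr2g (1.26) rose without any, and Polr2c fell by 0.55 on the log2 scale. Splicing genes were higher in 9 of 55 and lower in 4. With the total count as a covariate 4 of 56 were higher and 1 lower, and with the mitochondrial share 1 and none. These stand beside the same all-gene counts. Snrnp70, the U1 protein, had 100 to 459 CPM (median 292) in high-B2 and 19.9 to 128 CPM (median 56.2) in low-B2 embryos, on a retained-intron lead transcript (log2 2.21, SE 0.23, adjusted p = 4.97e-10). Snrpd2 rose by 1.11. Proteasome genes were higher in 2 of 37 and lower in 5, with neither share above that over all genes.

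Of 32 G2 and mitosis genes 7 were lower and 2 higher, so the called share was near the 26.7% over all genes. Adding the total count as a covariate gave 6 lower and 2 higher, beside 880 and 999 of all 14617 genes. Adding the mitochondrial share gave 1 and 1, beside 294 and 606 of 15541. Ccna2, cyclin A2, averaged 729 ± 260 CPM in high-B2 and 1502 ± 615 CPM in low-B2 embryos (log2 -1.07, SE 0.18, adjusted p = 2.29e-05). Fzr1, an activator of the anaphase-promoting complex, fell by 1.72 on the log2 scale, and Cenpf, a kinetochore protein, rose by 0.74. DNA replication genes were higher in 7 and lower in 7 of 39, with Pola1 (1.58), Rfc2 (1.39) and Orc3 (1.27), the 3 with the smallest p, each higher on a lead transcript that holds repeated words. Adding the total count gave 5 of 41 replication genes higher and 3 lower, and adding the mitochondrial share 3 of 41 and none. The same all-gene counts stand beside these.

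Among pluripotency factors 3 of 20 were higher and 4 lower. For this list and those that follow here, the shares over all genes were 12.4% higher and 14.3% lower. Nanog ran from 16.3 to 81.1 CPM (median 44.7) in high-B2 and from 1.87 to 24.9 CPM (median 8.11) in low-B2 embryos, and 16 of 20 high-B2 embryos lay above every low-B2 embryo (log2 2.01, SE 0.29, edgeR adjusted p = 8.78e-07). Its lead transcript holds the B2 word in its 3′ untranslated region, as shown above, so its level is uncertain. Dppa5a, an RNA-binding protein of pluripotent cells with no repeated word, had 149 to 835 CPM (median 318) in high-B2, 37.4 to 334 CPM (median 112) in low-B2 and 121 to 1155 CPM (median 385) in DMSO embryos (log2 1.5, SE 0.25, adjusted p = 1.51e-05). Lin28b, a blocker of let-7 maturation, fell by 1.20 on the log2 scale. Of 28 proposed regulators of genome activation 3 were higher and 4 lower, near the shares over all genes. Crxos (1.41) and Obox3 (1.55), both homeobox genes, rose, and Nfyc of the factor NF-Y fell by 0.53 on the log2 scale. Of 19 patterning factors Id2 was higher (450 ± 228 and 221 ± 122 CPM) and 4 were lower, among them Gata4 (-1.34) and Hes1 (-1.12).

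The 5 blood markers summed to 35.5 to 321 CPM in high-B2, 12.3 to 145 CPM in low-B2 and 0 to 45.1 CPM in DMSO embryos, almost all of it Hba-a1, while Hbb-bs was at 0 in each of the 3 sets. Hba-a1 averaged 144 ± 76.4 CPM in high-B2 and 47.3 ± 36.3 CPM in low-B2 embryos (log2 1.61), and its near-identical neighbour Hba-a2 228 ± 117 and 97.8 ± 43.2 CPM (log2 1.20). The 9 cumulus and granulosa markers summed to 2.11 to 31.8 CPM in high-B2 and 0.477 to 19.3 CPM in low-B2 embryos, and the 5 sperm markers to at most 7.19 and 3.84 CPM. The 6 oocyte and embryo markers were present in each set, with summed medians of 3571, 4124 and 2545 CPM in high-B2, low-B2 and DMSO embryos. The part of alpha-globin and of these cells in the results was not tested.

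The embryos that the choice did not use bear on the same genes. Over the 40 SR1848 embryos between the ends, where B2 spanned a narrower range, 61 of 13453 genes had a slope on log2 B2 CPM that passed (0.453%), 37 positive (0.275%) and 24 negative (0.178%), and 1956 had an unadjusted p under 0.05. With total-count scaling the split was 44 positive and 10 negative. Of the genes called between the ends, 52 of 3155 (1.65%) passed with the same sign and none with the opposite sign, which is 85.2% of the 61. The sign was the same in 77.5% of the 3155. Wdr66 (slope 1.30, adjusted p = 0.0381), Snrnp70 (1.53, adjusted p = 0.00127) and Dhx9 (1.35, adjusted p = 0.0419) were among those that passed. Others that led the comparison of the ends did not pass, with slopes of 0.75 for Rep15 (adjusted p = 0.151), 0.91 for Nlrc3 (0.162), 0.69 for Dppa5a (0.191) and 0.85 for Nanog (0.219). Cpeb1 had a slope of 0.07 and Zbed3 of -0.08. A repeated word was present in the lead transcript of 86.1% of the positive and 8.33% of the negative middle calls. Of 1582 end calls with no repeated word, 11 passed here with the same sign, 2 positive and 9 negative.

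Without SR1848 the association was also present. Over the 50 DMSO embryos 1377 of 14830 genes passed (9.29%), 569 with a positive (3.84%) and 808 with a negative slope (5.45%). Of the genes called between the ends, 798 of 3122 (25.6%) passed with the same sign, 329 positive and 469 negative, and 4 with the opposite sign, and these 798 are 57.95% of the DMSO calls. The sign was the same in 86.6% of the 3122, and in 86.2% of 1559 genes with no repeated word. A repeated word was present in the lead transcript of 43.5% of the positive and 6.82% of the negative DMSO calls. Rep15 rose by a log2 of 0.62 per doubling of B2 (edgeR adjusted p = 9.94e-08), Nlrc3 by 0.58 and Dppa5a by 0.46. Zbed3 fell by 0.60 (adjusted p = 2.52e-06), Cpeb1 by 0.47 and Ccna2 by 0.38. DMSO embryos 11, 13, 14 and 15 had the highest Rep15 (134 to 211 CPM) and the lowest Zbed3 (396 to 1065 CPM) of this set. Their B2 was 103 to 278 CPM. How far the slopes rest on these embryos was not tested. No covariate for the total count or the mitochondrial share was fitted here, and shared reads can enter these slopes too.

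**Figure D5:**
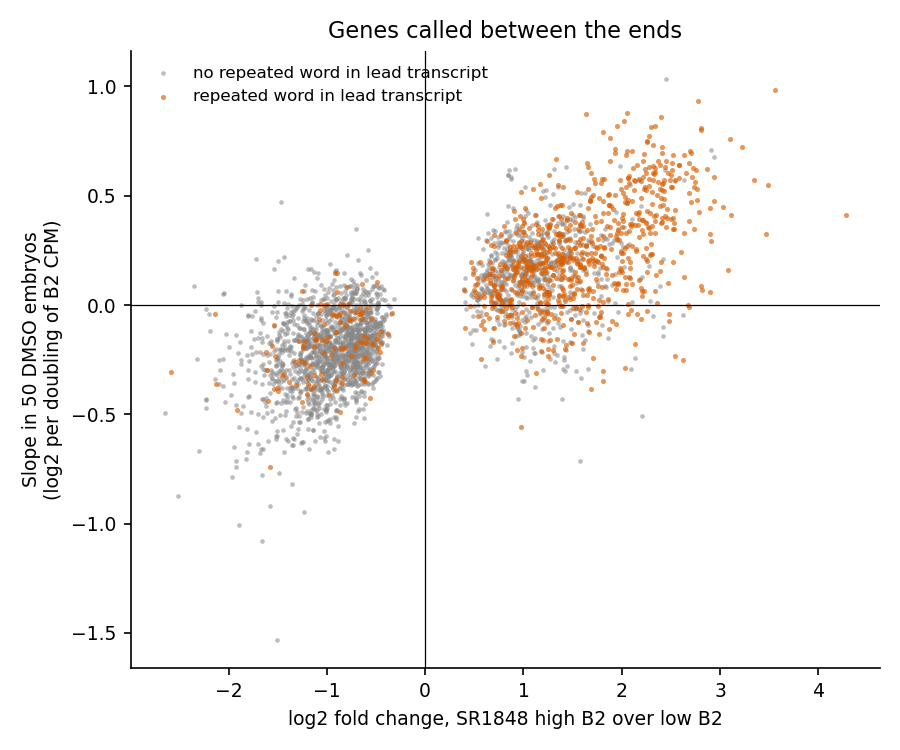
For each gene called between the ends and tested in both fits, the log2 fold change of high-B2 over low-B2 SR1848 embryos (horizontal) and its slope on log2 B2 CPM in the 50 DMSO embryos (vertical), with orange points for genes whose lead transcript holds a repeated word and grey points for the others. The sign is the same in 86.6% of the genes, and the orange points lie mostly at the upper right.

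The slope on B2 was compared between the 40 middle SR1848 embryos and the 50 DMSO embryos in a fit with an interaction term, and it differed in 295 of 16082 genes (1.83%). For most of the genes named here the difference did not pass, which does not show that the slopes are equal. For Rep15 the difference of SR1848 minus DMSO was 0.12 (adjusted p = 0.864), and for Dppa5a it was 0.21 (adjusted p = 0.734).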

How the data were processed

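The authors deposited kallisto estimated counts per transcript for single embryos (kallisto 0.46.1, per the submitters' processing notes, with mm10 and hg19 named as builds). Counts were summed per gene name with the authors' deposited table, giving 35973 names, and rounded. Transcripts without a name held 0.935% of counts and stayed out, and so did 5 other entries apart from B1 and the Nr5a2 gene-identifier entry. The authors' normalized values and fold changes were not used. Column totals of the ends ran from 2730850 to 7824460. Genes passing filterByExpr were fitted with edgeR 4.0.16 (R 4.3.3, TMM, robust glmQLFit, two-sided, Benjamini-Hochberg, threshold 0.05), with a biological coefficient of variation of 0.766 between the ends. An SE is the fold change, without its sign, divided by the square root of F. Permutation tests used 100000 resamples and were adjusted over 7 measures. Transcript sequences and coordinates come from GENCODE M21 (mm10). Fits were tested on simulated data. Of 100 genes given a log2 change of 1, 35 were recovered between the ends. Of 100 given a slope of 1 per doubling, 15 were recovered over the 40 middle embryos and 85 over the DMSO embryos. With a change of 2 the numbers were 81, 57 and 94, and 12, 5 and 10 unchanged genes were called. The fit over the middle embryos thus missed most slopes of 1. Without molecular identifiers, reads of 1 molecule are counted several times.

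Members and lists were chosen with earlier results of these data known. Named genes are the 12 largest rises and falls at a mean of 20 CPM or more without predicted genes, the list members of smallest p (3 each) or highest level in 26 lists, and 5 genes at each end of the rank correlation with B2. Members of a list that passed, the largest rises without repeated words, and Nr5a2 were added after their values were seen. Some of these are not reported here. Alternatives were other scalings, filters, tools, covariates, ways to rank B2 and numbers of embryos.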

Additional observations from a re-analysis of the deposited data

Results flagged for a closer look

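In 4 of the named genes the slope on B2 differed between the 40 middle SR1848 embryos and the 50 DMSO embryos by the interaction test (edgeR, adjusted over 16082 genes). The difference of SR1848 minus DMSO, per doubling of B2, was 1.17 for Dhx9 (adjusted p = 0.0186), 1.01 for Exosc5 (adjusted p = 0.0418), 1.16 for Snrnp70 (adjusted p = 0.0161) and 0.60 for Tango2 (adjusted p = 0.0354). Dhx9 had a slope of 1.35 in SR1848 and 0.16 in DMSO embryos, Exosc5 1.07 and 0.03, Snrnp70 1.53 and 0.34, and Tango2 0.86 and 0.24. All 4 have a transcript with a repeated word, and the part of shared reads was not tested.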

How the results depend on the processing

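The count of 3157 called genes stayed within 1.5 times under RLE, upper-quartile or total-count scaling, a filter of 5 CPM, DESeq2 and limma-voom. It also did with detected genes or embryo number as a covariate, and with 10 or 40 embryos at each end. Embryo number entered only as up to 40 or above, a split nearly even in both ends, so finer order was not tested. The count stayed within 1.5 times too under both other ways to rank B2 and with transcripts tested one by one. It was 5038 with no filter, 4864 over all 80 SR1848 embryos with B2 as a continuous measure, 1879 with the total count as covariate, 900 with the mitochondrial share as covariate and 1422 when genes with no repeated word were fitted alone. The number of genes tested also differed among these settings. The 61 slope calls in the middle SR1848 embryos became 926 with no filter, and no alternative moved the 1377 DMSO calls past 1.5 times. The rise of 762 detected genes after thinning was 385 without thinning and did not pass (p = 0.118). B1 passed under each alternative in which it was tested, which leaves out single transcripts and the fit of genes with no repeated word. Of 1712 values of named genes under alternatives, 1612 kept direction and side of the threshold, 96 no longer passed and 2 passed newly, and 2 uncalled values changed sign, Nr5a2 to 0.016 with upper-quartile factors and Rplp0 to -0.13 with the mitochondrial share. With the mitochondrial share 36 of 107 genes no longer passed, and with the total count or 40 embryos at each end 14 each. The causes were not tested. The 1 embryo of low depth was in neither end, so leaving it out changes nothing. No paired analysis was possible because each embryo number occurs once among the SR1848 embryos. Depth limits genes of a few CPM, and intervals for single counts are not given.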
